A study of Mus musculus with 12 samples.

Results

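The genes described here are the polymerases of translesion DNA synthesis (*Polk*, *Polh*, *Poli*, *Rev1*, and *Rev3l* with its partner *Mad2l2*), the related polymerase *Polq*, and 3 genes grouped by the name or activity of the nuclease ANKLE1 (*Ankle1*, *Ankle2* and *Gen1*), which makes 10 of the 42450 genes measured. The set was put together around *Polk* and *Ankle1*, which were chosen by their change after *Srrm2* depletion at 72 h in these same libraries, and the other 8 were added by family. The values of *Polk* and *Ankle1* are therefore given as a description, without a test, and tests are given for the other 8. Mouse E14tg2a.4 embryonic stem (ES) cells, a single wild-type line, received 50 nM siRNA against *Srrm2* (Srrm2-KD), which encodes a splicing factor of nuclear speckles, or against the firefly luciferase gene Gl2 as a control (Gl2-KD). Cells were collected at 24 h, or transfected once more with the same siRNA and collected 72 h after seeding. Each of 3 experiments held the 4 combinations of siRNA and time, which gives 12 polyA+ RNA-seq libraries. A second transfection separates the 72 h from the 24 h cells, so its effect and that of time in culture cannot be told apart.

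Replicative polymerases stall at damaged bases, and translesion polymerases take over there because their open active sites accept distorted templates at the price of fidelity. DNA polymerase eta (*Polh*) copies past ultraviolet dimers, kappa (*Polk*) past bulky adducts in the minor groove and iota (*Poli*) inserts bases opposite several lesions, while REV1 inserts deoxycytidine and also acts as the scaffold that brings the others together. DNA polymerase zeta, with *Rev3l* as its catalytic subunit and *Mad2l2* (REV7) as an accessory subunit, extends from the inserted base, and MAD2L2 is in addition a subunit of shieldin, which protects broken DNA ends. DNA polymerase theta (*Polq*) joins broken ends through short homologies. ANKLE1 is an endonuclease with ankyrin repeats and a LEM domain, ANKLE2 is a LEM protein needed to rebuild the nuclear envelope after mitosis, and GEN1 cuts Holliday junctions.

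Libraries held 73933196 to 153343831 estimated counts, and levels are given as counts scaled to library size with TMM factors (CPM). *Srrm2* itself was below its control in 3 of 3 experiments at either time, with a log2 fold change of -1.22 (SE 0.14) at 24 h and -1.16 (SE 0.14) at 72 h. In edgeR's quasi-likelihood test the Benjamini-Hochberg adjusted p was 0.0663 and 0.0991, and the groups overlapped because experiment 1 ran higher in both (517 CPM in its Srrm2-KD library at 24 h against 496 and 449 CPM in Gl2-KD of experiments 2 and 3). Experiment 1 stood apart from the others on the first principal component, which held 39.9% of the variance. The ES cell markers were high in every library (*Pou5f1* at 1149 to 1956 CPM), and 8 of the 10 markers of other cell types stayed under 2 CPM, the others being *Pax6* at 6.89 to 34.6 CPM and *Krt8* at 3.18 to 57.2 CPM. At 72 h the summed level of the 7 ES markers was 3648 to 3932 CPM in Gl2-KD and 3437 to 3515 CPM in Srrm2-KD, and that of the 10 other markers 40.9 to 68.3 and 28.8 to 38.9 CPM. Both sums were thus lower in Srrm2-KD, but not every marker was. *Krt8* averaged 30.7 CPM in Gl2-KD and 13.3 CPM in Srrm2-KD at 72 h, while *Pax6* averaged 17.1 and 18.0 CPM. The log2 fold change there was negative for 6 of the 7 ES markers and for 7 of the 10 others. The part of these markers in the values below was not tested. In bulk RNA, fewer cells that express a gene and less RNA of it per cell cannot be told apart.

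The upstream sequence of 3 genes is shown because *Polk* and *Ankle1* are the genes the set was built on and *Polh* is the family member closest to *Polk* over time. Sequences are from RefSeq (GRCm38.p6), run 5′ to 3′ on the strand of the gene and are cut at annotated exons, and capitals mark the motifs searched. *Polk* lies on the minus strand of chromosome 13 (chr13:96480690-96542579, GENCODE M21) and the *Col4a3bp* gene starts 39 bases away on the other strand, so that only chr13:96542580-96542617 lies between their starts. The *Ankle1* sequence is chr8:71405762-71406009 on the plus strand, just before the gene (chr8:71406010-71409904). The *Polh* sequence is chr17:46202646-46202781 on the minus strand, before the gene start (chr17:46171355-46202645).
Polk: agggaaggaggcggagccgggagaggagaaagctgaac
Ankle1: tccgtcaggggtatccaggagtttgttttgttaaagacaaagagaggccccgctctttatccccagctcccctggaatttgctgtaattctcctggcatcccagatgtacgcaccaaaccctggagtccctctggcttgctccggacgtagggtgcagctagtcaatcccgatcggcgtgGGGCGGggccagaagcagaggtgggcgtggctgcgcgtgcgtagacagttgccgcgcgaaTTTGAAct
Polh: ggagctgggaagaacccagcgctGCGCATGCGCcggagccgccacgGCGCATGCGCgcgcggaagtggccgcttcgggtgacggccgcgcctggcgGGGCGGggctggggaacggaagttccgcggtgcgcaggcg
Motifs of 8 kinds, chosen after the sequences were seen, were looked for on both strands. The shares therefore give how common a word is and do not say whether a match was unexpected. They were the CHR element TTTGAA of cell cycle genes, found in 16% of the 32851 RefSeq windows of 250 bases, the CCAAT box CCAAT (33.8%), the GC box GGGCGG (32.7%), the ETS element CCGGAAG (6.91%), the NRF1 core GCATGCGC (2.26%), the E2F elements TTTCGCGC and TTTGGCGC (0.654% for either), the cAMP response element TGACGTCA (1.55%) and the E-box CACGTG (6.02%). *Ankle1* held a CHR element and a GC box, whose first bases lie 10 and 70 bases before the start given by RefSeq. *Polh* held a GC box and the NRF1 core at 2 places, each read on both strands from overlapping letters. The stretch of 38 bases before *Polk* held none of these words, nor did a second *Polk* window of 250 bases inside the gene (chr13:96519188-96519437). The stretch of 38 bases and the *Polh* stretch of 136 bases are shorter than the windows behind the shares, which makes a match in them less likely by length alone. Among the other members, *Polq* also held a CHR element, with an ETS element, *Mad2l2* held GC boxes and *Gen1* an ETS element in a stretch of 78 bases. The windows of *Rev1* and *Ankle2* and another window of *Mad2l2* were not searched because of annotated exons in them. No window was available for *Poli* and *Rev3l*.

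None of the 10 genes was removed for low counts, the lowest value in a library being 974 counts (*Ankle1*). Per kb of the longest annotated transcript, *Rev1* had the highest mean level (19.7 CPM per kb, SD 2.91 over 12 libraries), followed by *Mad2l2* (15.5, SD 4.85), *Poli* (14.0, SD 2.47), *Ankle2* (8.70, SD 1.24), *Ankle1* (8.53, SD 2.95), *Gen1* (5.51, SD 1.35), *Rev3l* (5.38, SD 3.09), *Polh* (4.57, SD 1.04), *Polk* (4.11, SD 1.38) and *Polq* (2.66, SD 0.926). The scaffold *Rev1* thus had a higher mean level per length than the polymerases it binds, and *Polq* the lowest. *Rev1* shares 1643 exonic bases with *Eif5b* on the opposite strand, and whether strand was used in counting is not known. Whether the level of *Rev1* holds reads of *Eif5b* was not tested. At the digits kept, the estimated counts of *Rev1* were whole, such as 6653 and 5522, while those of *Polk* held fractions, such as 1336.5 and 1264.7. Ranges over the 12 libraries overlapped between every pair of genes next to each other in the order by level. Within libraries, *Polk* exceeded *Polq* in 11 of 12 and *Poli* exceeded *Ankle2* in 10 of 12, while *Ankle2* exceeded *Ankle1* in 5 of 12 and *Rev3l* exceeded *Polh* in 5 of 12.

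**Figure D1:**
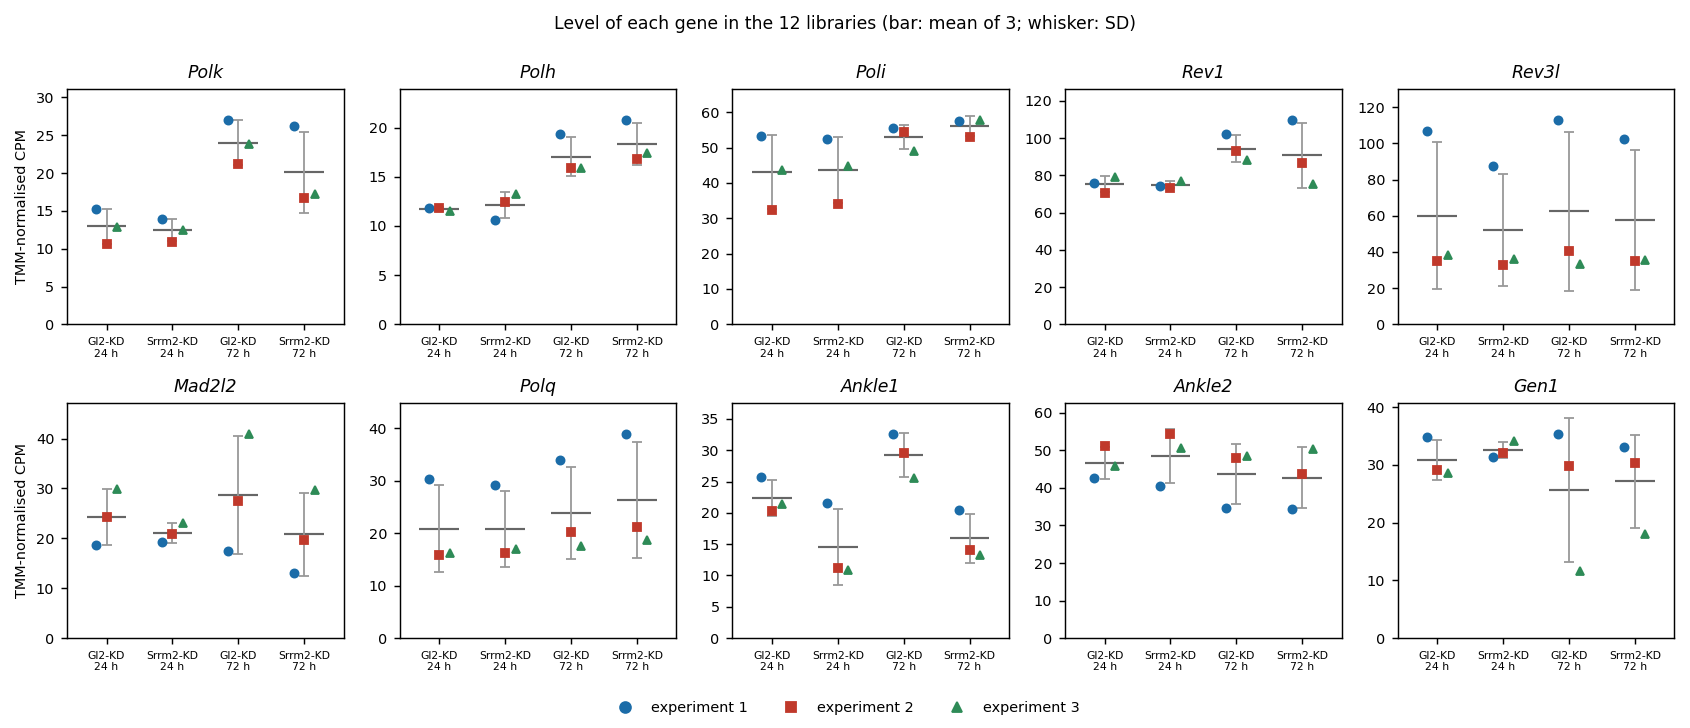
TMM-normalised CPM (vertical axes, starting at 0) of each of the 10 genes in the 4 groups. Each point is 1 library, shaped and coloured by experiment, with the mean of 3 as a bar and the SD as a whisker. *Ankle1* is lower in Srrm2-KD, *Polk* and *Polh* are higher at 72 h, and experiment 1 lies apart for *Rev3l*, *Polq*, *Mad2l2* and *Ankle2*.

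*Ankle1* had the largest difference between the siRNAs among the 10 genes at both times. At 24 h its level in Gl2-KD was 25.7, 20.2 and 21.4 CPM in experiments 1, 2 and 3, beside 21.6, 11.2 and 10.9 CPM after Srrm2-KD. At 72 h they had 32.7, 29.6 and 25.6 CPM in Gl2-KD and 20.4, 14.1 and 13.3 CPM in Srrm2-KD. The groups did not overlap at 72 h, which held for 6.66% of all genes. At 24 h the Srrm2-KD library of experiment 1 lay within the range of Gl2-KD. The log2 fold change was -0.68 (SE 0.15) at 24 h and -0.90 (SE 0.15) at 72 h, the latter a ratio of 0.535. Experiment 1 showed the smallest difference at both times, with a log2 value of -0.25 at 24 h against -0.85 and -0.97 in experiments 2 and 3, and of -0.68 at 72 h against -1.07 and -0.95. Without experiment 1 the log2 fold change was -0.91 at 24 h and -1.01 at 72 h, and leaving out other libraries or changing the tool kept the 72 h value between -1.04 and -0.81. These values describe the contrast that chose the gene. *Ankle1* was also higher at 72 h than at 24 h in Gl2-KD in 3 of 3 experiments (log2 fold change 0.39, SE 0.15), with overlapping groups, and in Srrm2-KD in 2 of 3 (0.16, SE 0.15).

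*Polk* had the largest difference over time. At 24 h its level was 15.3, 10.7 and 12.9 CPM in Gl2-KD and 13.9, 10.9 and 12.5 CPM in Srrm2-KD of experiments 1, 2 and 3. At 72 h it was 27.1, 21.1 and 23.8 CPM in Gl2-KD and 26.3, 16.8 and 17.3 CPM in Srrm2-KD. Every 72 h library lay above every 24 h library under either siRNA. Groups without overlap over time were found for 7.27% of all genes in Gl2-KD and 7.48% in Srrm2-KD. The log2 fold change from 24 h to 72 h was 0.90 (SE 0.12), or 1.86-fold, in Gl2-KD and 0.67 (SE 0.12), or 1.59-fold, in Srrm2-KD. Between the siRNAs, *Polk* differed by -0.05 (SE 0.12) on the log2 scale at 24 h and by -0.28 (SE 0.12) at 72 h, where Srrm2-KD was lower in 3 of 3 experiments and the groups overlapped. The 72 h ratio came from experiments 2 and 3 (log2 -0.34 and -0.47), while experiment 1 had -0.04. Without the Srrm2-KD library of experiment 1 at 72 h the value was -0.41, without experiment 1 altogether -0.40, and without the Srrm2-KD library of experiment 3 it was -0.18.

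**Figure D2:**
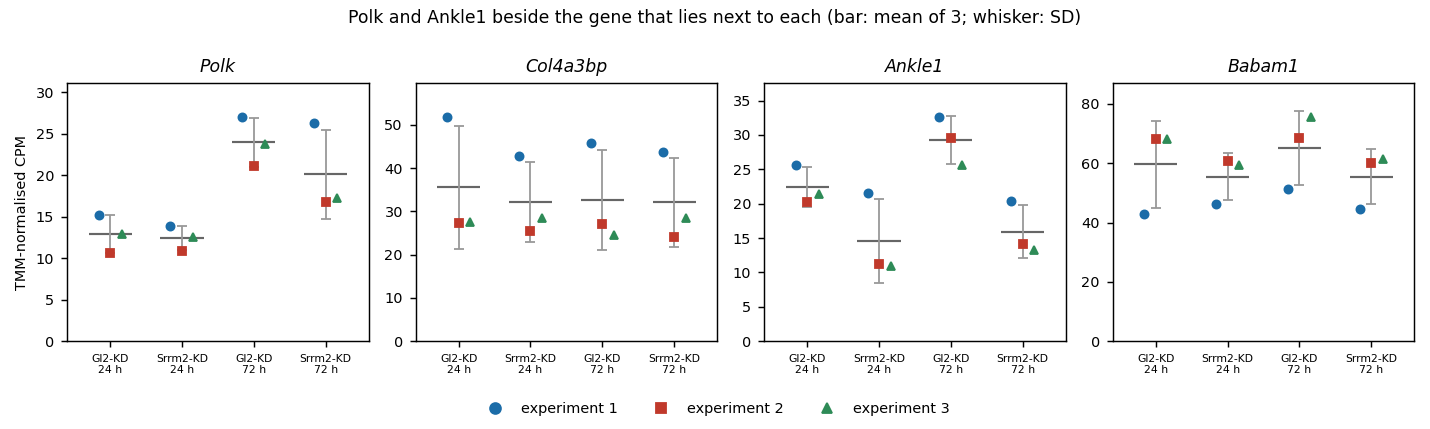
TMM-normalised CPM (vertical axes, starting at 0) of *Polk* with *Col4a3bp*, which starts 39 bases away on the other strand, and of *Ankle1* with *Babam1*, which ends 1391 bases upstream on the same strand. Points are libraries by experiment, bars means of 3 and whiskers SD. The higher level of *Polk* at 72 h is not seen in *Col4a3bp*, and *Babam1* differs less between the siRNAs than *Ankle1*.

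The genes next to both were measured in the same libraries. *Col4a3bp*, which encodes the ceramide transfer protein, had a log2 fold change over time of -0.11 (SE 0.10) in Gl2-KD and -0.01 (SE 0.10) in Srrm2-KD, and of -0.01 (SE 0.10) between the siRNAs at 72 h. *Babam1*, a member of the BRCA1-A complex, was lower in Srrm2-KD at 72 h in 3 of 3 experiments with a log2 fold change of -0.23 (SE 0.09) and an adjusted p of 0.329 by edgeR's quasi-likelihood test, and had -0.08 (SE 0.09) at 24 h. *Gm17622*, inside *Polk*, was at 0 CPM in every library. Of the other members, *Rev1* shares 1643 exonic bases with *Eif5b* on the opposite strand, and *Ankle2* shares 198 with *Gm43137* and *Poli* 96 with *Mir6357*, both on the opposite strand as well. The libraries were stranded, but the sources used here do not say whether strand was used in counting. *Mir6357* was at 0 CPM in every group, and no value was available for *Gm43137*. Whether reads of these overlaps were split between genes was not tested. *Eif5b*, a translation initiation factor, had a log2 fold change of 0.00 (SE 0.09) between the siRNAs at 72 h and -0.11 (SE 0.09) over time in Gl2-KD. *Mad2l2* overlaps *Draxin* on the opposite strand with 0 shared exonic bases. *Draxin* had a log2 fold change of 0.287 (SE 0.335) between the siRNAs at 72 h.

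For the other 8 genes, edgeR's quasi-likelihood test called none between the siRNAs at 24 h or 72 h or for the difference of the siRNA effect between the times. Over all 19410 genes tested, 0% were called in each of these comparisons at a Benjamini-Hochberg adjusted p below 0.05. At an unadjusted p below 0.05, edgeR, DESeq2 and limma-voom gave 0 of the 8 at 24 h and 1 of the 8 at 72 h, which was *Mad2l2* each time, and none of the 3 tools gave a member for the difference of the effects. Over all genes, edgeR gave 508 genes (2.62%) at 24 h and 2498 (12.9%) at 72 h at that unadjusted level. The median log2 fold change of the 8 genes was 0.02 at 24 h and 0.02 at 72 h, beside 0.01 and -0.02 over all genes tested.

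*Mad2l2* was lower in Srrm2-KD at 72 h in every experiment. Experiments 1, 2 and 3 had 17.6, 27.6 and 41.0 CPM in Gl2-KD and 13.1, 19.7 and 29.6 CPM in Srrm2-KD. The groups overlapped because the experiments differed in level, yet the log2 ratios within them were close to each other at -0.42, -0.49 and -0.47. The log2 fold change was -0.46 (SE 0.16), and edgeR's adjusted p was 0.282. When every experiment had a block of its own at either time, where 3.73% of genes were called, edgeR's adjusted p was 0.0308, and in a fit of the 6 libraries compared alone, where 1.78% were called, it was 0.047. At 24 h its level was 18.7, 24.3 and 29.9 CPM in Gl2-KD, beside 19.2, 20.9 and 23.2 CPM after Srrm2-KD, with a log2 fold change of -0.17 (SE 0.16). The difference between the 72 h and 24 h effects was -0.30 (SE 0.23), with an edgeR adjusted p of 1. *Mad2l2* was the sole one of these 8 genes with an adjusted p below 0.05 between the siRNAs under any setting tried. It was called at 72 h in 2 of 24 alternative settings, the 2 given above. Neither DESeq2 nor limma-voom called *Mad2l2* there.

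The partner of *Mad2l2* in polymerase zeta, *Rev3l*, had a log2 fold change of -0.15 (SE 0.11) at 24 h, lower in 3 of 3 experiments, and -0.10 (SE 0.11) at 72 h, lower in 2 of 3. Of the Y-family genes, *Polh* differed by 0.05 (SE 0.14) and 0.11 (SE 0.14), *Poli* by 0.03 (SE 0.14) and 0.08 (SE 0.14), and *Rev1* by -0.01 (SE 0.12) and -0.06 (SE 0.12) at 24 h and 72 h. *Polq* differed by 0.01 (SE 0.10) at 24 h and 0.12 (SE 0.10) at 72 h, where it was higher in 3 of 3 experiments. *Ankle2*, which shares the LEM domain with *Ankle1*, differed by 0.05 (SE 0.10) and -0.03 (SE 0.10). *Gen1* differed by 0.10 (SE 0.26) and 0.13 (SE 0.26), and its standard error was the widest of the 8. Non-overlapping groups were found for 0 of the 8 genes at 24 h, where 3.44% of all genes had them, and for 0 of the 8 at 72 h, where 6.66% had them.

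**Figure D3:**
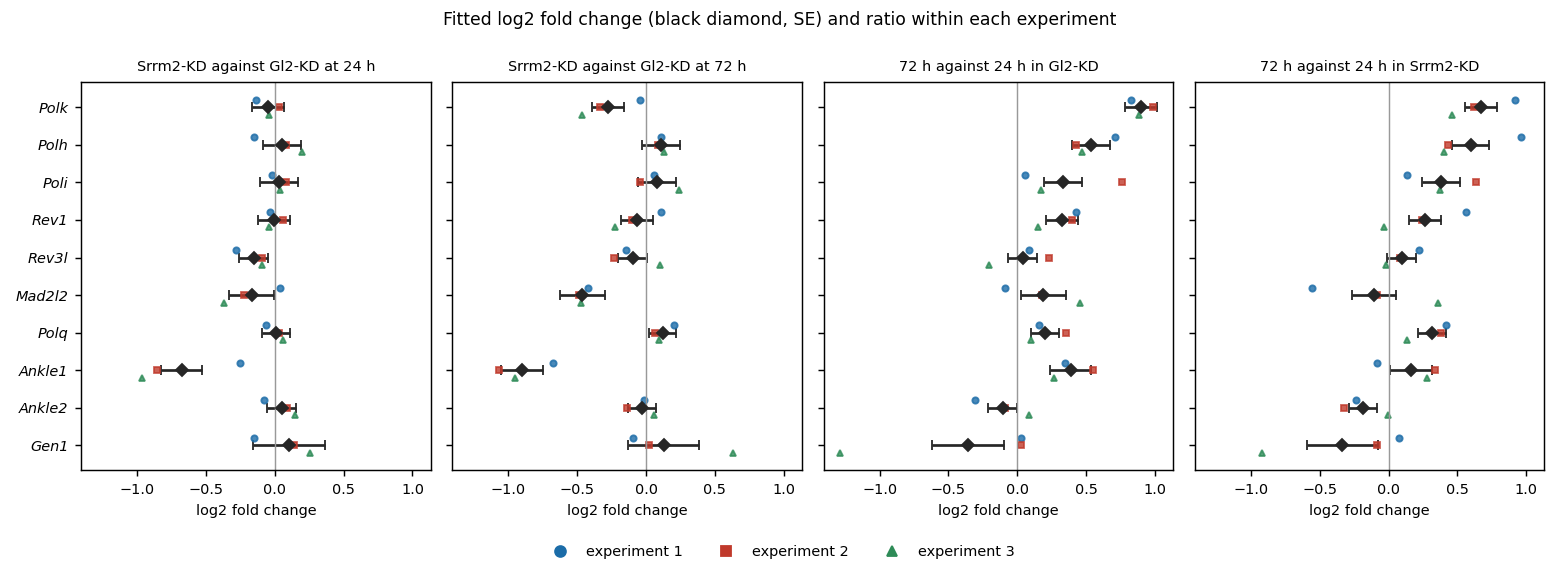
Log2 fold change (horizontal axes) of each gene in the 4 comparisons named above the panels, with the fitted value and its SE as a black diamond and whisker and the ratio of CPM within each experiment as a coloured point. The *Ankle1* values lie left of 0 for both siRNA comparisons, those of *Mad2l2* at 72 h are close together, and *Polk* and *Polh* lie right of 0 in all experiments over time.

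From 24 h to 72 h, 6 of the 8 genes added by family had a positive log2 fold change in Gl2-KD and 5 of 8 in Srrm2-KD, with medians of 0.20 and 0.18 beside 0.02 and 0.00 over all genes. In edgeR's test 1.45% of all genes were called in Gl2-KD (145 higher and 137 lower at 72 h) and 0.551% in Srrm2-KD, and none of the 8. At an unadjusted p below 0.05 edgeR gave 3 of the 8 in Gl2-KD (*Polh*, *Poli*, *Rev1*) and 4 of the 8 in Srrm2-KD (the same 3 and *Polq*), where 16.8% and 16.3% of all genes reached that level. Both comparisons rest on separate libraries, though from the same 3 experiments.

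*Polh* had the largest time difference of these 8. At 24 h it was at 11.8, 11.8 and 11.5 CPM in Gl2-KD and 10.7, 12.5 and 13.2 CPM in Srrm2-KD. At 72 h it was at 19.3, 15.9 and 15.9 CPM in Gl2-KD and 20.8, 16.9 and 17.5 CPM in Srrm2-KD. All 6 libraries at 72 h lay above all 6 at 24 h. The log2 fold change was 0.54 (SE 0.14) in Gl2-KD, or 1.45-fold, with an edgeR adjusted p of 0.0775, and 0.60 (SE 0.14) in Srrm2-KD, or 1.51-fold, with an edgeR adjusted p of 0.0871. DESeq2, which called 8.16% of genes in Gl2-KD and 6.62% in Srrm2-KD, gave adjusted p of 0.0121 and 0.00357 for *Polh*. In limma-voom, which called 1.33% in Srrm2-KD, its adjusted p there was 0.0425.

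The levels of *Rev1* in experiments 1, 2 and 3 were 76.0, 70.7 and 79.3 CPM at 24 h and 102, 93.2 and 88.1 CPM at 72 h in Gl2-KD. These groups did not overlap, and the log2 fold change was 0.32 (SE 0.12; adjusted p 0.184 by edgeR's quasi-likelihood test). In Srrm2-KD the levels were 74.3, 73.5 and 77.2 CPM at 24 h and 109.9, 86.9 and 75.3 CPM at 72 h, with 0.26 (SE 0.12). *Poli* had 53.3, 32.2 and 43.6 CPM at 24 h and 55.4, 54.5 and 49.1 CPM at 72 h in Gl2-KD, a log2 fold change of 0.33 (SE 0.14; edgeR adjusted p 0.255). In Srrm2-KD *Poli* went from 52.5, 34.0 and 44.7 CPM to 57.6, 52.9 and 57.9 CPM, a log2 fold change of 0.38 (SE 0.14; edgeR adjusted p 0.212). Experiment 2 carried much of the *Poli* difference, since without it its log2 fold change was 0.09 in Gl2-KD and 0.22 in Srrm2-KD. *Polq* had 0.20 (SE 0.10) in Gl2-KD and 0.31 (SE 0.10) in Srrm2-KD, higher at 72 h in all experiments of both, with edgeR adjusted p of 0.346 and 0.170. Groups without overlap over time were found for 2 of the 8 genes in Gl2-KD (*Polh*, *Rev1*) and 2 of the 8 in Srrm2-KD (*Polh*, *Poli*), where 7.27% and 7.48% of all genes had them.

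The remaining genes differed less or not in 1 direction. *Rev3l* had 0.04 (SE 0.11) in Gl2-KD and 0.09 (SE 0.11) in Srrm2-KD, *Mad2l2* 0.19 (SE 0.16) and -0.11 (SE 0.16), and *Ankle2* -0.11 (SE 0.10) and -0.19 (SE 0.10). *Gen1* was at 28.5 to 34.8 CPM in the 6 libraries at 24 h. At 72 h it had 35.4, 29.8 and 11.7 CPM in Gl2-KD and 33.1, 30.3 and 18.0 CPM in Srrm2-KD, so that both libraries of experiment 3 were below the other 10. Its log2 fold change over time was -0.36 (SE 0.26) in Gl2-KD and -0.34 (SE 0.26) in Srrm2-KD, and without experiment 3 it was 0.02 and -0.01.

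The experiments differed more than the treatments for several of these genes. *Rev3l* averaged 102 CPM in the 4 libraries of experiment 1 and 35.8 CPM in those of each of the other 2 experiments, a difference of 1.51 on the log2 scale. *Polq* averaged 33.1 CPM in experiment 1 and 18.4 and 17.4 CPM in experiments 2 and 3. In the other direction, *Mad2l2* averaged 17.1 against 23.1 and 30.9 CPM, and *Ankle2* 38.0 against 49.3 and 48.8 CPM. For these 4 of the 10 genes the 4 libraries of experiment 1 lay wholly above or below the other 8, as they did for 30.5% of all genes. The labels do not say what separates the experiments, and whether the day of RNA processing differed between them is not given. The block for the experiment in the fit takes up such level differences.

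**Figure D4:**
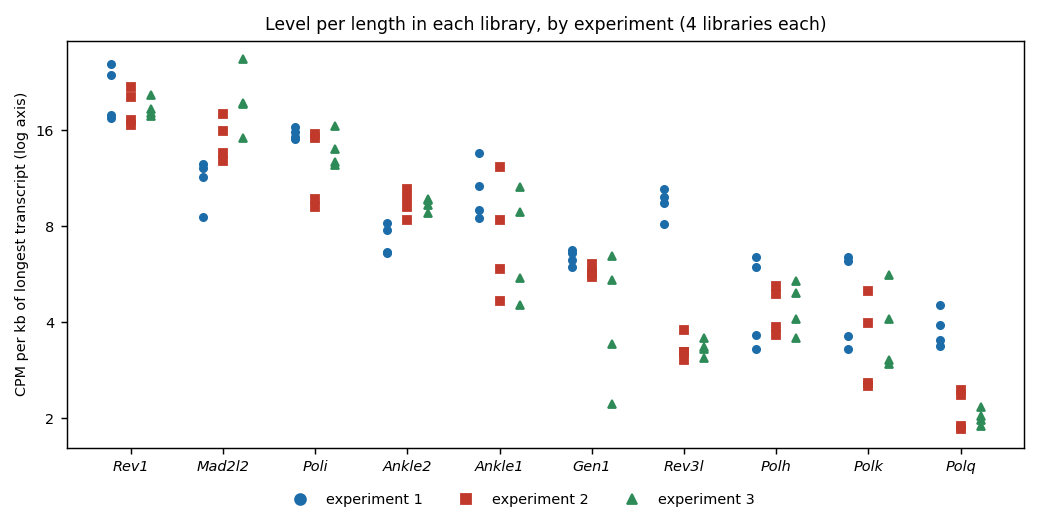
CPM per kb of the longest annotated transcript (log axis) of the 10 genes, ordered by their mean. Each point is 1 library, and the 3 columns of a gene are the experiments. Experiment 1 stands wholly above the others for *Rev3l* and *Polq* and wholly below for *Mad2l2* and *Ankle2*.

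Genes that act with these polymerases and nucleases were counted in lists. Of 16 translesion partners, such as the PCNA ubiquitin ligase *Rad18* and the deubiquitinase *Usp1*, edgeR called 0 in each of the 5 comparisons, with 3 at an unadjusted p below 0.05 over time in Gl2-KD and 5 in Srrm2-KD, beside the 16.8% and 16.3% of all genes. DESeq2 called 2 and 1 in these time comparisons, beside 8.16% and 6.62% of all genes, and limma-voom 0, and the one with the smallest p at 72 h between the siRNAs was the DNA translocase *Zranb3* (log2 fold change -0.18, SE 0.11, adjusted p 0.515). Of 17 other DNA polymerase genes, edgeR, DESeq2 and limma-voom called 0 in each comparison, with 4 at an unadjusted p below 0.05 in edgeR between the siRNAs at 72 h, where 12.9% of all genes reached it. The smallest p among these was that of *Poln*, a gene with at most 104 estimated counts in a library and 0 in all 3 Srrm2-KD libraries at 72 h, beside 14.1, 27.1 and 104 counts in Gl2-KD. Its groups did not overlap at 72 h, which held for 6.66% of all genes, and its adjusted p in edgeR was 0.138. At 24 h *Poln* had 3.80, 17.0 and 59.7 counts in Gl2-KD and 17.0, 0 and 27.4 counts in Srrm2-KD. Of 16 structure-selective nucleases, edgeR called 1, as did limma-voom: *Ercc5*, the nucleotide excision repair nuclease XPG, rose from 38.3 CPM (SD 5.85, n = 3) at 24 h to 60.5 CPM (SD 8.56, n = 3) at 72 h in Gl2-KD, with a log2 fold change of 0.66 (SE 0.10) and an edgeR adjusted p of 0.0179. In Srrm2-KD its log2 fold change was 0.34 (SE 0.10; edgeR adjusted p 0.141). DESeq2 also called *Ercc5* in Gl2-KD, and in Srrm2-KD it called *Ercc4*, the XPF nuclease subunit, which edgeR fitted at -0.62 (SE 0.17, adjusted p 0.126) over time. Over time in Gl2-KD, 1.45% of all genes were called by edgeR and 2.48% by limma-voom.

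Of 12 measured genes of shieldin and end joining, the shieldin subunit *Shld2* was called over time in Gl2-KD (log2 fold change 0.68, SE 0.13, edgeR adjusted p 0.0367) and had 0.40 (SE 0.13, edgeR adjusted p 0.172) in Srrm2-KD. Of 19 crosslink repair genes, *Ube2t*, the ubiquitin-conjugating enzyme of the Fanconi pathway, was called in the same comparison (0.63, SE 0.12, edgeR adjusted p 0.0368). In that comparison edgeR called 1.45% of all genes. In Srrm2-KD *Ube2t* had 0.62 (SE 0.12, edgeR adjusted p 0.0576) and was called there by DESeq2 and limma-voom. None of the 10 LEM and envelope genes and none of the 14 S phase genes were called by edgeR. Between the siRNAs at 72 h, 1 of each had an unadjusted p below 0.05 in edgeR, which 12.9% of all genes reached. DESeq2 and limma-voom called *Lemd1* over time in Srrm2-KD, where they called 6.62% and 1.33% of all genes, and no S phase gene. *Lemd1* (0.27, SE 0.12) and the uracil glycosylase *Ung* (-0.27, SE 0.09) had the smallest p of these lists between the siRNAs at 72 h, with edgeR adjusted p of 0.366 and 0.276. Of the S phase genes, 12 of 14 had negative log2 fold changes over time under either siRNA, with medians of -0.09 in Gl2-KD and -0.11 in Srrm2-KD.

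Of 10 p53 target genes, 3 were called higher at 72 h in Gl2-KD, where 0.747% of all genes were called higher. They were *Trp53inp1*, which promotes p53-dependent cell death (log2 fold change 0.81, SE 0.17, edgeR adjusted p 0.0425), the BH3 gene *Bbc3* (0.71, SE 0.11, edgeR adjusted p 0.0214) and the p53 ubiquitin ligase *Mdm2* (0.60, SE 0.13, edgeR adjusted p 0.0488). All 10 had positive values under both siRNAs, with medians of 0.57 in Gl2-KD and 0.34 in Srrm2-KD. In Srrm2-KD 0 of the 10 were called by edgeR, with 5 at an unadjusted p below 0.05, which 16.3% of all genes reached. DESeq2 called 3 there and limma-voom 2, beside 6.62% and 1.33% of all genes. In Gl2-KD DESeq2 called 7 of the 10 and limma-voom 4, beside 8.16% and 2.48% of all genes. The summed level of the list was 1017 to 1149 CPM in the 6 libraries at 24 h and 1269 to 1549 CPM in the 6 at 72 h, moving with *Polk* and *Polh*, and its part in their values was not tested. These calls over time rest on the design of the fit, since without a block for the experiment, and likewise without experiment 2, edgeR called 0 genes in either time comparison.

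The genes most like *Polk* across the 12 libraries, by Pearson correlation of log2 CPM after the mean of each experiment was removed, were *Gm14418* (0.98), *Rsrp1* (0.98), *Dnaic1* (0.98), *Mdm4* (0.98) and *Padi3* (0.97). Those most like *Ankle1* were *Nek8* (0.99), *Cox6b2* (0.98), *Mir5125* (0.97), *Pias3* (0.97) and *Araf* (0.97). These genes were picked as the highest of 19410, and the libraries share time points and siRNAs, so the values describe likeness alone. Among the 10 genes, *Polk* was most like *Rev1* (0.90) and *Polh* (0.88).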

How the data were processed

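PolyA+ RNA of 12 libraries of E14tg2a.4 cells was analysed. The authors pseudo-aligned stranded 100-bp paired-end reads to the GENCODE M24 transcriptome with Kallisto 0.46.1 and deposited estimated counts, 1 for each gene in each library, not normalised for depth. Between 33.9% and 43.1% of values in a library were not whole, and counts were rounded. Of 42450 identifiers, 42156 were matched to GENCODE M21 (GRCm38) symbols and positions. RefSeq promoter windows were available for 8 of the 10 genes, with 250 bases before and 50 after each start. The 50 were left out.

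In R 4.3.3 with edgeR 4.0.16, genes passing filterByExpr (minimum count 10, minimum total 15; 19410 genes) were scaled by TMM and fitted with 1 term per group and the experiment as a block (glmQLFit, legacy=TRUE; glmQLFTest). Calls were made where the adjusted p (Benjamini-Hochberg) was under 0.05. The standard error is the log2 fold change divided by the root of F. Degrees of freedom were 6 (residual) and 5.09 (prior), and the common coefficient of biological variation was 0.22. The authors used edgeR with the RNA processing day, which is not given per library in the sources used here, so the experiment number of the labels stood in its place. That the numbers pair libraries was checked across genes after group means were removed: correlations were 0.248 to 0.711 for the 18 pairs of equal number and -0.596 to 0.216 for the 36 others. The study describes the 3 experiments as independent biological replicates.

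Members and lists were chosen with earlier results of these data known. Named genes are the members, *Srrm2* and at most 3 called genes of each list (or the one with the smallest p at 72 h between the siRNAs). Genes that share exonic bases with a member were named too, as was *Draxin*. So were genes within 5000 bases of *Polk* or *Ankle1*, apart from *Gm48133*, for which no value is given. Other genes that overlap a member without shared exonic bases were left out. The 5 genes most correlated with *Polk* and with *Ankle1* were also named. *Ercc4*, and *Brca2* in the closing section, were chosen after their values were seen, and the motifs were chosen after the promoter sequences were seen. *Tfcp2l1* (log2 fold change -0.44) and *Krt8* (-1.10) had the smallest p of the ES and other cell markers at 72 h between the siRNAs. Alternatives were DESeq2 1.42.0, limma 3.58.1 with voom, RLE factors, legacy=FALSE, other filters, other blocks and leaving out libraries; leaving out whole experiments was added after seeing the data. All 3 tools were first run on simulated counts with less spread than these data and no difference between experiments. That run does not show how the tools handle the experiments here.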

Additional observations from a re-analysis of the deposited data

How the results depend on the processing

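No value of a member with an adjusted p below 0.05 under any setting had the other sign in the fit reported. Counts of calls depended on the tool and the block, and the cause was not tested. In the order 24 h between the siRNAs, 72 h between the siRNAs, time in Gl2-KD and time in Srrm2-KD, the counts of genes called were 0, 0, 282 and 107 as reported, 25, 542, 1338 and 1061 with DESeq2, 2, 4, 482 and 259 with limma-voom, 1, 5, 624 and 279 with legacy=FALSE, 1, 42, 420 and 212 with no filter, and 1, 1, 476 and 176 with at least 10 counts in every library. For the difference of the siRNA effects they were 0 as reported, 2 with DESeq2 and 1 with no filter. With no replicate block they were 0, 0, 0 and 0, with a replicate block for every pair of libraries that a comparison sets against each other 0, 724, 4 and 0, and with only the 6 libraries compared and a replicate block 0, 323, 158 and 0. Leaving out 1 library at a time gave 0 to 10, 0 to 55, 0 to 387 and 0 to 93, and 0 to 2 for the difference.

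Among the 8 members tested, the count of calls was 0 in each comparison as reported. It was 1 over time in Gl2-KD and 1 in Srrm2-KD with DESeq2, 1 in Srrm2-KD with limma-voom, and 1 between the siRNAs at 72 h both with that replicate block by pair and with only the 6 libraries. It was 0 to 1 over time in Gl2-KD when 1 library was left out, the 1 being *Polh* without the Srrm2-KD library of experiment 1 at 24 h (edgeR adjusted p 0.0467).

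Added after seeing the data, leaving out experiment 1 gave 6, 8, 375 and 135 genes, leaving out experiment 2 gave 0, 0, 0 and 0, and leaving out experiment 3 gave 0, 0, 87 and 90. Members called stayed at 0 in these. The 24 h value of *Ankle1* was -0.88 without the Srrm2-KD library of experiment 1 at 24 h and -0.54 without experiment 3. Its time value in Srrm2-KD was 0.36 without the Srrm2-KD library of experiment 1 at 24 h, 0.05 without that of experiment 2 and 0.07 without that of experiment 3. No member had under 974 counts in a library.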

Other observations

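*Brca2*, the homologous recombination mediator in the list of crosslink repair genes, had 1206, 1440, 1161 and 1036 estimated counts in the 4 libraries of experiment 1. In experiments 2 and 3 it had at most 124 counts, and fewer than 1 in 6 of these 8 libraries. Whether these estimates reflect the RNA or the way reads were assigned was not tested, so they do not show that *Brca2* is absent there.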
